A study of Pteromalus puparum with 9 samples.

Results

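In the parasitoid wasp Pteromalus puparum, 64 of 21808 transcript ID stems were abundant in the salivary gland reservoir and in the carcass and low in the salivary gland duct. An ID stem is a transcript ID without its final isoform number, so that it gathers the isoforms, here called models, that share an ID, and a trailing x in an ID was kept. Levels are CPM, counts scaled to a common library total and adjusted by the trimmed mean of M values (TMM). A stem belonged to the group when its mean in the reservoir was at least 5 CPM, its means in the reservoir and in the carcass were each at least 4 times the mean in the duct, and the reservoir mean was below 4 times the carcass mean. Because these values chose the stems, the levels below and their differences between tissues are a description and were not tested. The 64 stems held 201 of 40026 models and made up 1.02% of the 6275 stems with a reservoir mean of at least 5 CPM.

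Wild-type wasps gave 3 groups, namely the duct of the salivary gland, its reservoir, and the carcass, each with 3 strand-specific, paired-end bulk RNA libraries labelled as biological replicates of 1 batch. The labels do not define what the carcass still contains, and they give no age, sex or number of pooled animals. P-values therefore measure the spread between these samples. Total estimated counts ranged from 18690598 in duct replicate 1 to 22640711 in reservoir replicate 3, and a count of 0 in 1 library allows up to 0.0909 to 0.21 CPM, a limit from 3 counts that covers counting error only.

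Insect salivary glands are secretory epithelia. A duct carries saliva towards the mouthparts, and in many insects a reservoir stores it before release. A carcass preparation commonly holds several tissues, such as muscle, fat body, cuticle and nerve. The deposited tables pair no ID with a gene name, so neither the roles of the stems nor the labelled tissues could be checked against marker genes. In bulk samples, fewer cells of a type and less RNA per cell cannot be told apart.

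The 64 stems were not one even class. In 29 the carcass mean was at least 4 times the reservoir mean, in 21 it lay between the reservoir mean and 4 times that mean, and in 14 the reservoir mean was above the carcass mean. The 29 stems had a median duct level of 1.53 CPM, a median reservoir level of 12.6 CPM and a median carcass level of 677 CPM. The 21 stems had medians of 1.42, 11.96 and 20.98 CPM, and the 14 stems had medians of 0.750, 13.0 and 7.09 CPM, in the same order of tissues. The 3 classes thus had close median levels in the reservoir, though single stems reached 1014, 185 and 146 CPM there, in the order of the classes. Their distance in the carcass largely follows from how the classes were cut. Among the 29 stems, 21 had a carcass mean of at least 16 times the reservoir mean and 12 of at least 64 times.

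**Figure D1:**
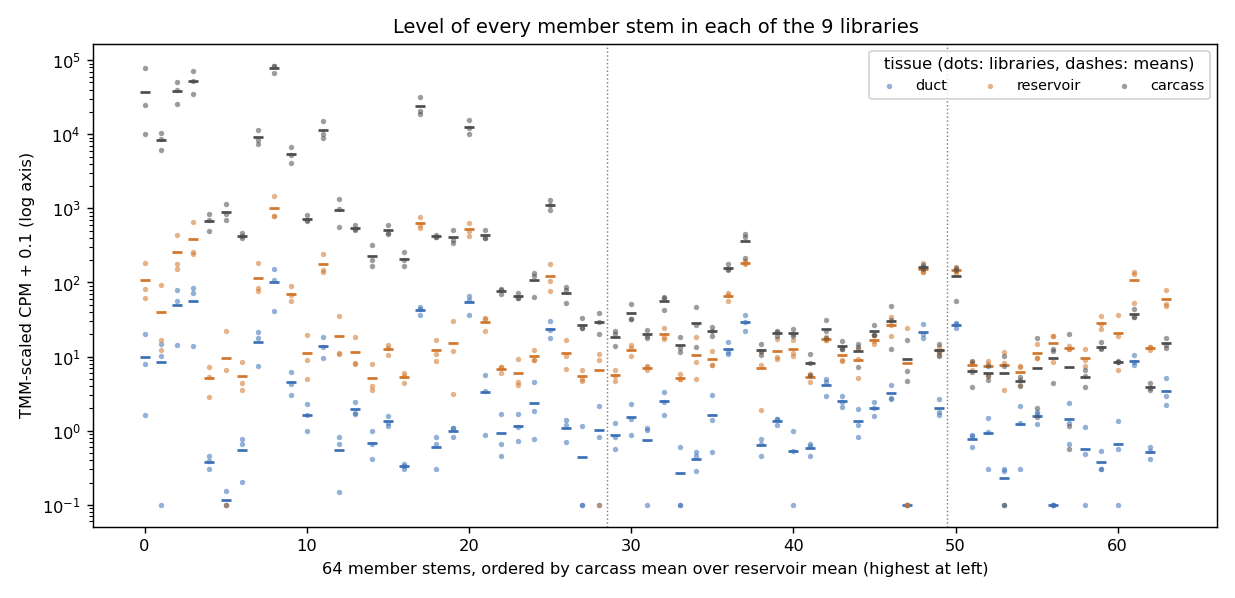
TMM-scaled CPM plus 0.1 on a log axis for each of the 64 stems in all 9 libraries, with dots for libraries, dashes for tissue means and stems ordered by the ratio of carcass to reservoir. Carcass levels span the widest range at the left, where the carcass mean is up to 344 times the reservoir mean, and lie among or below the reservoir levels at the right.

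Together the 64 stems held 35.3%, 33.8% and 41.0% of all counts in carcass replicates 1 to 3. Their share was 0.484%, 0.299% and 0.306% of the counts of the reservoir libraries, and 0.0342%, 0.0664% and 0.0543% of those of the duct libraries. The mean shares were 36.7% ± 3.79 in the carcass, 0.363% ± 0.105 in the reservoir and 0.0516% ± 0.0162 in the duct (SD, n = 3). The carcass share came almost wholly from the 29 carcass-heavy stems, at 36.5% ± 3.80. The 35 other stems held 0.171% ± 0.0104 of carcass counts, 0.0820% ± 0.00659 of reservoir counts and 0.0132% ± 0.00162 of duct counts (SD, n = 3). The 5 stems most abundant in the carcass held 80.4% of the carcass CPM of the 64.

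Among the 64 stems, PB.2430 had the highest reservoir mean in CPM. It stood at 40.9, 154 and 109 CPM in duct replicates 1 to 3, at 1451, 799 and 793 CPM in the reservoir and at 83337, 67381 and 83521 CPM in the carcass. Its means were 101 ± 56.8, 1014 ± 378 and 78079 ± 9266 CPM (SD, n = 3), a reservoir mean 10.03 times that of the duct and a carcass mean 77.0 times that of the reservoir. The libraries of the 3 tissues did not overlap.

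PB.414x stood at 36.4, 44.4 and 46.8 CPM in the duct, 770, 604 and 543 CPM in the reservoir and 20497, 19004 and 31799 CPM in the carcass. PB.5435x stood at 36.3, 66.6 and 58.7 CPM in the duct, 644, 493 and 427 CPM in the reservoir and 12233, 15612 and 10131 CPM in the carcass. In both stems reservoir replicate 1 was the highest of its tissue. The other stem named by its high reservoir level, Ppup138560, had the wider spread, at 13.9, 83.7 and 71.5 CPM in the duct, 662, 244 and 262 CPM in the reservoir and 52440, 35057 and 71829 CPM in the carcass. Its duct replicate 1 was the lowest duct library and its reservoir replicate 1 the highest reservoir library.

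Counts do not correct for transcript length, so levels were compared between stems in TPM, the length-corrected abundance of transcripts. On the TPM scale the order in the carcass was PB.2430 at 49216 ± 2435, Ppup138560 at 48268 ± 10307, Ppup021040 at 34759 ± 6856, PB.6442x at 29570 ± 25215, PB.5435x at 26165 ± 9597 and PB.414x at 15455 ± 5100 (SD, n = 3). In this order each neighbouring pair of means lay within the larger of its SDs, except PB.414x under PB.5435x and Ppup021040 under Ppup138560, which were further apart. In the reservoir, where only replicates 1 and 3 had usable TPM columns, PB.5435x was highest at 514 and 350 TPM, followed by PB.2430 at 358 and 202 TPM.

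The carcass exceeded the reservoir most in PB.6442x and Ppup021040, among stems with a reservoir mean of at least 50 CPM. PB.6442x stood at 1.55, 7.87 and 20.2 CPM in the duct, 184, 81.1 and 62.4 CPM in the reservoir and 24977, 10221 and 77363 CPM in the carcass, a carcass mean 344 times the reservoir mean. Ppup021040 stood at 14.5, 79.3 and 56.5 CPM in the duct, 438, 178 and 154 CPM in the reservoir and 39117, 25202 and 50297 CPM in the carcass, a ratio of 149. Both had tissues that did not overlap, and in both duct replicate 1 was lowest and reservoir replicate 1 highest within its tissue. PB.5924x had a duct mean of only 4.39 ± 1.60 CPM, with 89.4, 55.6 and 67.3 CPM in the reservoir and 5301, 4089 and 6715 CPM in the carcass.

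At the other end of the range, PB.6613x stood at 5.11, 2.80 and 2.15 CPM in the duct, 78.8, 50.6 and 48.1 CPM in the reservoir and 14.4, 13.0 and 17.5 CPM in the carcass. Its reservoir mean was 17.6 times the duct mean and 3.95 times the carcass mean. PB.102 stood at 7.59, 10.3 and 8.30 CPM in the duct, 129, 137 and 52.9 CPM in the reservoir and 34.5, 43.1 and 34.2 CPM in the carcass, with a reservoir mean 2.85 times the carcass mean. In both stems every reservoir library was above every carcass library, and every carcass library was above every duct library.

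Of the 64 stems, 61 had more than 3 counts summed over the duct libraries. Among those 61 the reservoir mean was 4.22 to 102 times the duct mean, with a median of 9.58, and the carcass mean was 4.04 to 3803 times the duct mean, with a median of 46.5. PB.4553 had no duct count and stood at 8.38, 18.95 and 18.76 CPM in the reservoir, at least 307-fold higher against a floor of 3 counts over the duct libraries. PB.6202 had no duct count either, but its reservoir level came from replicate 2 alone, at 24.25 CPM with no count in replicates 1 and 3. PB.5298 had 1 duct count against 414 reservoir counts, a ratio of 522 with an exact 95% counting interval of 93.1 to 20657, and its reservoir replicate 3 had no count.

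Single libraries of the duct were mostly apart from those of the other tissues, which the rule largely sets. All 3 reservoir libraries were above all 3 duct libraries in 60 of the 64 stems, against 19.9% of 12143 tested stems, and all 3 carcass libraries were above the duct in 61, against 34%. Reservoir and carcass libraries were apart, in either direction, in 44 of the 64 stems, a share near the 66.3% of tested stems. They overlapped in the other 20, none of them among the 29 carcass-heavy stems, a class whose limit largely sets this. All 64 stems passed the filter on low counts.

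In edgeR's quasi-likelihood test, calls required an adjusted p (Benjamini-Hochberg, over all 12143 stems) under 0.05 together with a change of at least 2-fold. Called as higher in the reservoir than in the duct were 60 of the 64 stems, beside 6.24% of all tested stems (17.1% in either direction), and as lower in the duct than in the carcass 61, beside 22% (38.3% in either direction). Between reservoir and carcass 4 were called higher, beside 15%, and 32 lower, beside 27.5% (42.5% in either direction). With library size alone as the scaling, the split of higher and lower calls over all tested stems moved from 758 and 1321 to 502 and 1843 for reservoir against duct, from 1977 and 2674 to 1418 and 3532 for duct against carcass, and from 1817 and 3339 to 994 and 5617 for reservoir against carcass. The rule used all 3 contrasts, so nothing is read from these counts. In edgeR's test against the duct, the reservoir level was not called for Ppup020810 (adjusted p = 0.267), PB.2184 (adjusted p = 0.0993), PB.6202 (adjusted p = 0.111) and PB.4649x (adjusted p = 0.184). Ppup020810 stood at 0, 14.7 and 10.1 CPM in the duct and at 92.4, 12.2 and 16.5 CPM in the reservoir, so that its libraries overlapped. PB.2184 stood at 0.46, 20.1 and 1.05 CPM and MSTRG.1281 at 1.93, 17.5 and 1.42 CPM in the carcass, where replicate 2 alone was high.

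Close to the limits of the rule, values changed little from inside to outside. PB.5896 had a reservoir mean 4.22 times the duct mean and belonged, whereas PB.3684, at 3.94 times, did not. For the carcass against the duct PB.1415 lay inside at 4.04 times and PB.7442 outside at 3.98 times. For the reservoir against the carcass PB.6613x lay inside at 3.95 times and MSTRG.11098 outside at 4.12 times. PB.4094 lay inside with a reservoir mean of 5.02 CPM and PB.2125x outside with 4.91 CPM.

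When stems were chosen by the same rule from 8 of the 9 libraries, 58 to 76 stems were found. In the library left out, the 4-fold relation to the duct held for 73% to 91.9% of these stems. The share was 1.39% to 3.72% among all stems with a reservoir mean of at least 5 CPM. The lowest share was found with reservoir replicate 3 left out and the highest with carcass replicate 1 left out. A left-out reservoir or carcass library had to be at least 4 times the duct mean. For a left-out duct library, the reservoir and carcass means each had to be at least 4 times its level. The 5 CPM minimum and the limit of reservoir against carcass were not checked in that library. Other libraries of the same tissues chose the stems by this gap, so the excess over all stems is largely set by the choice.

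Reservoir replicate 1 stood apart for the carcass-heavy stems. It was the highest reservoir library in 24 of these 29 stems, with a median of 1.97 times the mean of replicates 2 and 3, and in 15 of the 35 other stems, with a median of 1.07. Among all stems with a reservoir mean of at least 5 CPM it was highest in 36.3%. Duct replicate 1 was the lowest duct library in 19 of the 29 stems. It was also lowest in 10 of the 21 stems with a carcass mean up to 4 times that of the reservoir. The same held in 6 of the 14 with the higher level in the reservoir. The share was 32.5% among all stems with a reservoir mean of at least 5 CPM, and ties counted for the lower replicate number. Chosen without reservoir replicate 1, the rule gave 60 stems, 53 of them shared with the 64. Of the 11 stems lost, 9 were carcass-heavy, and 20 carcass-heavy stems were kept.

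A further 142 stems that did not meet the rule also had a carcass mean of at least 100 CPM and at least 16 times that of each gland part. The 21 stems of the group that met these limits summed to 4918, 2756 and 2657 CPM in reservoir replicates 1 to 3, and the 142 others to 1459, 619 and 621 CPM. In the carcass the sums were 271416, 204327 and 375120 CPM for the 21 and 139383, 94627 and 194002 CPM for the 142. In the duct they were 170, 505 and 416 CPM for the 21 and 823, 1157 and 996 CPM for the 142. Both sets were thus highest in reservoir replicate 1 and lowest in duct replicate 1 of their tissues.

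The median reservoir level was 1.54% of the carcass level in the 21 stems and 1.10% in the 142 others. The median ratio of reservoir to duct was 11.1 in the 21 and 1.63 in the 142, a difference that the rule sets. Of the 142, 29 had a reservoir mean of at least 5 CPM, and reservoir replicate 1 was highest in 25 of these, with a median of 1.62 times the other replicates, as it was in 18 of the 21, with a median of 2.10 times. The part of carcass material in the reservoir levels was not tested.

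**Figure D2:**
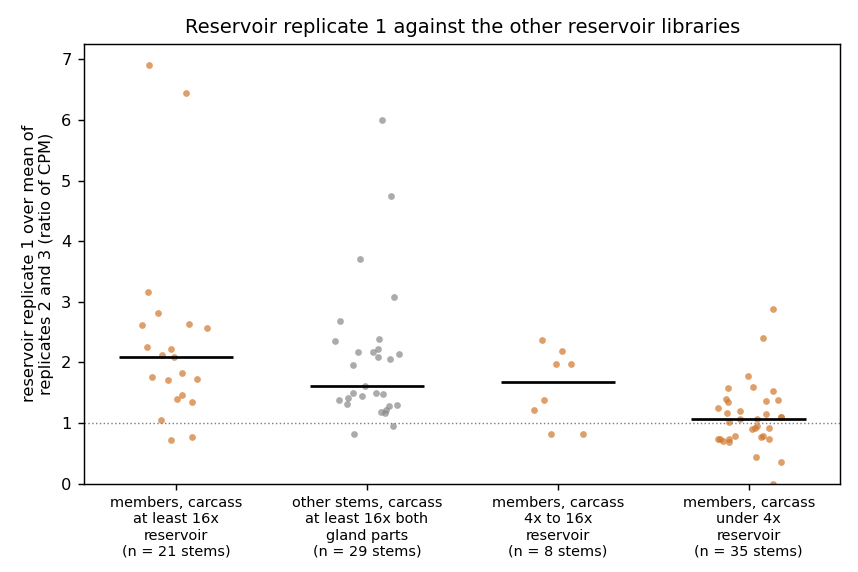
Level in reservoir replicate 1 divided by the mean of replicates 2 and 3, on a linear axis, with 1 dot per stem and a bar for each median, for the classes of stems named under the axis. The median is 2.10 for the 21 stems of the group with a carcass mean at least 16 times that of the reservoir. It is 1.62 for the 29 stems outside the group and 1.07 for the 35 stems of the group that are not carcass-heavy.

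Replicates spread more for these 64 stems than for abundant stems in general. The median coefficient of variation over 3 libraries was 45.0% for duct libraries, 28.2% for reservoir libraries and 22.997% for carcass libraries. Among all stems with a reservoir mean of at least 5 CPM it was 12.7%, 11.2% and 16.3%. The sets were not matched on level.

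The IDs of the 64 stems carried the prefix PB without a trailing x in 32 (50%), PB with x in 19 (29.7%), MSTRG in 9 (14.1%) and Ppup in 4 (6.25%). Among all stems with a reservoir mean of at least 5 CPM these classes held 67.8%, 23.8%, 5.48% and 2.07%. What the prefixes mean is unstated in the labels and tables. All 4 Ppup stems were carcass-heavy. A single model made up 46.9% of the 64 stems and 43.7% of the larger set.

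How the counts of a stem divide over its models was not used to choose the stems, and it could be tested in 29 of the 34 stems with at least 2 models. With limma's diffSplice F test at an adjusted p under 0.05, usage differed between reservoir and carcass in 6 of the 29 (20.7%), beside 17.4% of 4152 tested stems, a share near the background. It differed between duct and carcass in 6, beside 16.4%, and between reservoir and duct in 2, beside 5.08%. Of the 6 stems called between reservoir and carcass, 4 were among the 13 tested carcass-heavy stems, none among the 9 stems with a carcass mean up to 4 times that of the reservoir, and 2 among the 7 with the higher level in the reservoir. By mean share, the most abundant model was the same in reservoir and carcass in 23 of the 29 stems, and the share over all tested stems was not computed. In 2 stems, PB.6442x and PB.7810, the leading model was constant within each of these tissues and different between them. Only PB.6442x was among the stems called, and PB.7810 was not (adjusted p = 0.123, limma diffSplice).

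PB.6442x had the largest change of isoform. Its model PB.6442.10x took 95.7%, 94.3% and 89.7% of the stem's counts in reservoir replicates 1 to 3 and 0.03%, 1.00% and 0.02% in the carcass (adjusted p = 2.07e-05, limma diffSplice). The model PB.6442.30x had no count in any duct or reservoir library and took 99.3%, 94.0% and 99.8% in the carcass. The leading model thus differed between the gland parts and the carcass, although the carcass also held PB.6442.10x. In level, PB.6442.10x stood at 176, 76.5 and 56.0 CPM in the reservoir and at 6.92, 102 and 14.7 CPM in the carcass. Its reservoir and carcass libraries overlapped through carcass replicate 2 alone: the carcass mean was 41.2 CPM with that library and 10.8 CPM without it, below every reservoir library. PB.6442.30x stood at 24814, 9612 and 77178 CPM in the carcass.

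In PB.5434x the leading model by mean share was PB.5434.8x in all 3 tissues. It took 54.0% in the duct, against 48.1% for the reservoir and 69.4% for the carcass. PB.5434.8x led in every carcass library, but not in duct replicate 1 or in reservoir replicates 2 and 3. The model named next led there, and its mean reservoir share was close, at 47.3%. A further model, PB.5434.10x, took 36.2%, 53.8% and 51.8% of counts in the reservoir, 58.6%, 36.7% and 40.0% in the duct and 0.06%, 1.21% and 0.07% in the carcass (reservoir against carcass, adjusted p = 8.13e-07, limma diffSplice). This call was lost when models with under 5% of the counts of a stem, summed over all libraries, were left out (adjusted p = 0.142, limma diffSplice). The call between duct and carcass was lost there too (adjusted p = 0.32, limma diffSplice). That setting leaves out PB.5434.10x itself, with 8181 counts beside 661630 for PB.5434.8x. It therefore cannot test the share of PB.5434.10x. PB.5434.10x stood at 88.5, 74.2 and 77.4 CPM in the reservoir and at 5.89, 109 and 10.9 CPM in the carcass, where the mean was 42.0 CPM with replicate 2 and 8.41 CPM without it. For PB.6442.10x and PB.5434.10x alike, carcass replicate 2 had the highest share of the carcass libraries.

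PB.7319.1 took 9.15%, 14.3% and 10.8% of the counts of PB.7319 in the reservoir, 19.6%, 8.58% and 16.1% in the duct and 0.25%, 0.30% and 0.26% in the carcass (reservoir against carcass, adjusted p = 3.1e-08, limma diffSplice). The leading model PB.7319.4 took 81.7% in the reservoir and 95.7% in the carcass (means, n = 3). The level of PB.7319.1 was 13.2 ± 4.34 CPM in the reservoir, 3.25 CPM in the duct and 2.99 ± 0.274 CPM in the carcass. PB.102.9 had no count in reservoir replicates 1 and 3 and took 1.83% in replicate 2, against 25.9%, 28.4% and 28.1% of the counts of PB.102 in the carcass (adjusted p = 0.00964, limma diffSplice). PB.102 is a stem with a higher level in the reservoir, yet this model stood at 0.838 CPM there and at 10.3 CPM in the carcass. The call for PB.102 was lost without reservoir replicate 1 (adjusted p = 0.0569, limma diffSplice) and with edgeR's diffSpliceDGE (adjusted p = 0.0606).

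**Figure D3:**
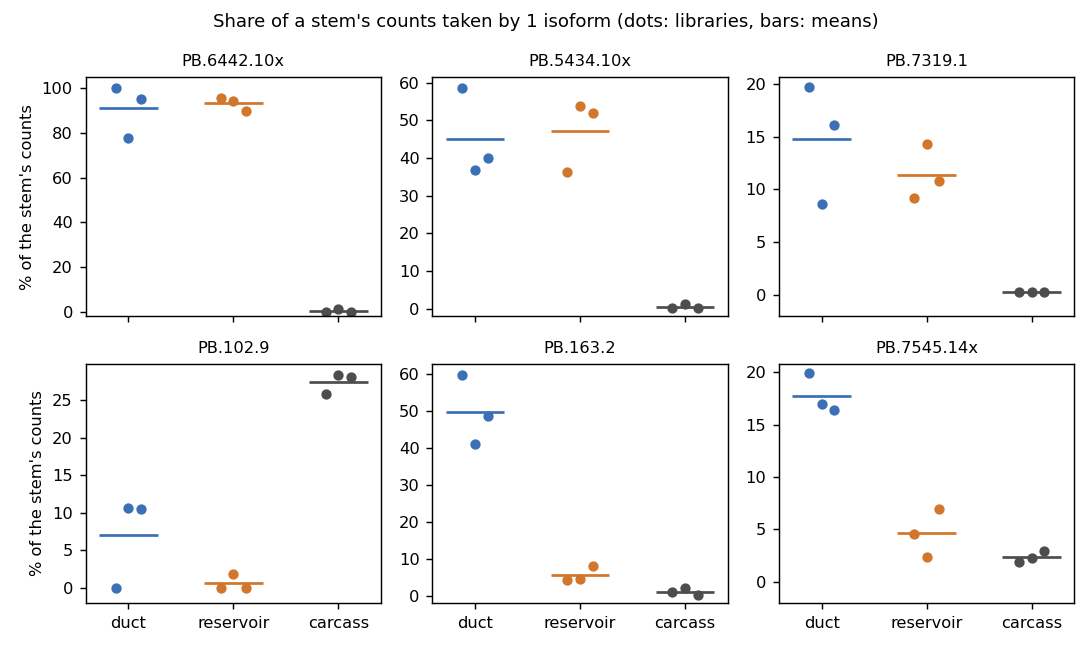
Percent of a stem's counts taken by 1 of its models in duct, reservoir and carcass, with 1 dot per library and a bar for each mean. PB.6442.10x and PB.5434.10x are near 0% in the carcass and at 89.7% to 95.7% and 36.2% to 53.8% in the reservoir, and PB.163.2 is high in the duct alone.

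PB.163 and PB.7545x are the stems whose usage differed between reservoir and duct, and they are named for that reason after their values were seen. Of the counts of PB.163, model PB.163.2 took 59.9%, 41.1% and 48.8% in duct replicates 1 to 3, 4.33%, 4.37% and 7.91% in the reservoir and 0.84%, 2.16% and 0.24% in the carcass (reservoir against duct, adjusted p = 1.71e-06, limma diffSplice). In its place PB.163.10 took 93.7% in the reservoir and 96.7% in the carcass, against 41.4% in the duct (means, n = 3). As levels, PB.163.2 stood at 13.4 ± 2.96 CPM in the duct and 7.93 ± 2.36 CPM in the reservoir, and PB.163.10 at 11.02 CPM in the duct, 137 ± 15.5 CPM in the reservoir and, in the carcass, 117 ± 55.1 CPM. Most of the stem's difference between duct and the other tissues thus lay in 1 model. In PB.7545x the leading model PB.7545.1x averaged 68.4% in the duct against 88.9% in the reservoir and 93.5% in the carcass, and PB.7545.14x took 17.7%, 4.63% and 2.40% (means, n = 3; reservoir against duct, adjusted p = 0.00804, limma diffSplice). The call for PB.7545x was lost without duct replicate 1, duct replicate 3, reservoir replicate 1 or reservoir replicate 2 (adjusted p = 0.0632 to 0.122, limma diffSplice).

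The remaining calls were weaker. Between reservoir and carcass PB.163 had an adjusted p of 0.0234, lost without any one library but carcass replicate 2 (adjusted p = 0.0711 to 0.278, limma diffSplice). PB.5924x had an adjusted p of 0.0393 and lost its call without any one library but carcass replicate 2 (adjusted p = 0.0538 to 0.127, limma diffSplice) and with diffSpliceDGE (adjusted p = 0.303, edgeR). Of the 6 stems called between duct and carcass, 5 were PB.7319, PB.163, PB.7545x, PB.5434x and PB.6442x, and the last of these was lost without any one duct replicate (adjusted p = 0.0675 to 0.311, limma diffSplice) and with voomLmFit in place of voom (adjusted p = 0.221, limma diffSplice). PB.8169 was the other, at an adjusted p of 0.0055 with limma diffSplice and 0.886 with edgeR's diffSpliceDGE. Models of 1 stem can share reads, so their shares depend on how reads were divided among them.

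Many PB numbers occur both with and without the trailing x, and such partner stems were compared after values had been seen. Of the 51 PB stems in the group, 33 had a partner, none of which met the rule, and 30 partners could be tested. In edgeR's quasi-likelihood test 1 partner was called higher in the reservoir than in the duct (3.33%, beside 6.24% of all stems) and 5 were called lower (16.7%, beside 10.9%). Only 3 of the 5 calls held without each of the libraries in turn.

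PB.2615x was one of these, at 300.4, 432 and 255 CPM in the duct, 6.15, 2.85 and 0.377 CPM in the reservoir and 210, 79.6 and 31.9 CPM in the carcass. It fell by 6.73 ± 1.09 (log2, SE) from duct to reservoir (adjusted p = 0.00313, edgeR). Its counterpart in the group, PB.2615, ran the other way, with no count in duct replicates 1 and 2, 0.51 CPM in replicate 3 and 4.82, 4.89 and 5.66 CPM in the reservoir. PB.2709x stood at 13.9, 33.0 and 9.58 CPM in the duct and 0.769, 0.340 and 0.323 CPM in the reservoir, having fallen by 5.31 ± 0.61 (log2, SE; adjusted p = 0.000703, edgeR). Its counterpart PB.2709 stood at 0.31, 0.43 and 0.51 CPM in the duct and 12.3, 13.4 and 13.2 CPM in the reservoir.

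PB.7947x stood at 71.9, 81.0 and 124 CPM in the duct with no count in any reservoir library, at least 1465-fold lower (adjusted p = 0.0407, edgeR), and the call was lost without any one duct or reservoir replicate (adjusted p = 0.0766 to 0.0884, edgeR). Its counterpart PB.7947 stood at 12.6 ± 2.65 CPM in the duct and 65.2 ± 7.41 CPM in the reservoir (SD, n = 3). PB.1912 stood at 7.03, 4.46 and 6.45 CPM in the duct and 1.26, 1.15 and 2.10 CPM in the reservoir, having fallen by 1.97 ± 0.31 (log2, SE; adjusted p = 0.00282, edgeR). PB.2810 had only 6 duct counts and none in the reservoir (adjusted p = 0.0375, edgeR), and its call was lost without any one of duct replicates 1 and 2 and the reservoir replicates (adjusted p = 0.0604 to 0.12, edgeR). PB.1648 was the one called higher in the reservoir, by 3.09 ± 0.62 (log2, SE; adjusted p = 0.00813, edgeR), with a mean of 0.147 CPM in the duct, 1.33 CPM in the reservoir and, in the carcass, 168 CPM.

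**Figure D4:**
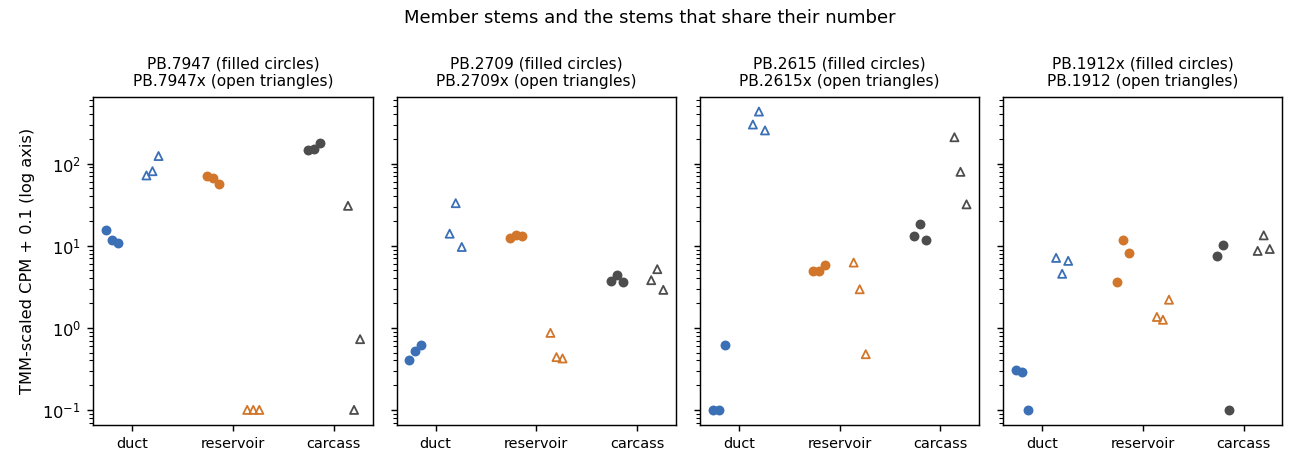
TMM-scaled CPM plus 0.1 on a log axis in duct, reservoir and carcass for 4 stems of the group (filled circles) and the stems that share their number (open triangles), with 1 symbol per library. In each panel the filled circles are higher in the reservoir than in the duct and the open triangles are lower. The rule sets the first, and the 4 pairs were picked from the 5 whose partner was called lower, which sets the second.

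Membership depends on whether stems of 1 number are kept apart. With x and non-x stems of a number summed, 51 stems met the rule, and 47 of the 64 stems lay in a sum that met it while 17 did not. The sum for number PB.2615 was 329 CPM in the duct, 8.30 CPM in the reservoir and, in the carcass, 121 CPM. PB.2615 itself stood at 0.171, 5.12 and 14.3 CPM, in the same order of tissues. It thus held a small part of the sum in the duct and in the carcass, but the larger part in the reservoir. Whether reads were divided between stems of 1 number was not tested.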

How the data were processed

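Duct, reservoir and carcass RNA was extracted with TRIzol and sequenced by Illumina, per the labels' protocols. The submitters' processing notes name Salmon 1.9 for quantification, and its reference is not stated there. The authors deposited estimated counts per model as whole numbers, and rounding changed none. The authors also deposited TPM, in which the reservoir replicate 2 column sums to 2000000 and equals the sum of the duct replicate 3 and reservoir replicate 1 columns in 99.96% of models within 2e-06; it was not used.

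Counts were summed per ID stem in R 4.3.3 and scaled by TMM in edgeR 4.0.16, over factors of 0.7458 to 1.633. After filterByExpr, which kept 12143 of 21808 stems, a quasi-likelihood model with each tissue as a coefficient was fitted to all 9 libraries; SEs came from the F statistic. Isoform usage was tested with voom and diffSplice in limma 3.58.1. DESeq2 1.42.0, other filters, scalings, limits and left-out replicates were alternatives. Scripts were tested on simulated data.

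Replicates of a tissue correlated in log CPM at 0.916 to 0.957, across stems, which are not independent replicates. The members and lists were chosen with earlier results of these data known. Named stems were the 4 with the highest reservoir mean, those at the ends of the reservoir to carcass ratio or lowest in the duct at 50 CPM or more, those nearest each limit, and the 4 called usage differences between reservoir and carcass with the largest change in share; others were chosen after their values were seen. Marker and role lists were set by gene description and could not be run without names.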

Additional observations from a re-analysis of the deposited data

How the results depend on the processing

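The group held 42 stems at a reservoir minimum of 10 CPM and 717 with no minimum; other settings gave 46 (TPM, 31 of them shared) to 92 (a fold of 3 in the rule), and leaving out 1 library gave 58 to 76. Scaled by TMM, the share of counts was 0.470% in the reservoir and 28.7% in the carcass. Without TMM the median log2 change over tested stems moved from -0.0339 to -0.378 for reservoir against duct, from -0.0539 to -0.506 for duct against carcass and from -0.226 to -1.02 for reservoir against carcass, and 52 stems met the rule, 49 of them shared. At a minimum isoform share of 5%, usage differed in 1 stem between reservoir and duct, 1 between duct and carcass and 2 between reservoir and carcass. PB.6442x could not be tested there and PB.5434x lost both its calls. This share was taken from counts summed over all libraries. It left out PB.6442.10x, PB.5434.10x, PB.7319.1 and PB.7545.14x, so it cannot test their shares. With 1 library left out, usage differed in 1 to 2, 5 to 8 and 3 to 9 stems, in the same order of comparisons. Partners lower in the reservoir than in the duct numbered 3 in a test against a fold of 2 and 3 to 5 with 1 library left out. Same-numbered libraries showed no clear shared deviation (r from -0.103 to 0.128, beside -0.113 to 0.104 for other pairs). With 3 libraries per tissue this cannot exclude a pairing by number, which the labels do not state. With a replicate block 53, 60 and 37 stems were called in the order above, usage differed in 2, 7 and 8 stems, and 3 partners were lower. Of the other recomputed values, 138 summary values stayed within the limits set for a change, 259 single calls held and 48 were lost. The cause of these changes was not tested. Depth limits usage in the duct, where 14 of 29 stems had at least 20 counts in each duct library.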

Other observations

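Some members had neighbouring ID numbers: PB.5434x and PB.5435x differ by 1, PB.6198 and PB.6202 by 4, PB.1921 and PB.1926 by 5, and PB.1912x and PB.1921 by 9. What a number stands for is unstated in the labels and tables. PB.5434x and PB.5435x were both carcass-heavy, with carcass means of 11453 and 12659 CPM, and their reservoir means were 177 and 521 CPM. Ppup144450, which missed the rule with a reservoir mean 3.86 times the duct mean, stood at 78.7 CPM in the duct, 304 CPM in the reservoir and, in the carcass, 88630 CPM. In CPM, which does not correct for length, this carcass mean was above that of every member.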
